A study of Homo sapiens with 12 samples.

Results

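The accessibility of chromatin at the hemidesmosome and laminin-332 genes was followed in 12 ATAC-seq libraries of the established cell lines KYSE150 and KYSE510, both from human squamous carcinoma of the oesophagus. The genes were 8 of 20037 protein-coding genes: the integrin chains ITGA6, ITGB4 and ITGA3, the laminin chains LAMA3 and LAMB3, the transmembrane collagen COL17A1, and the cytolinkers DST and PLEC. They were chosen by name, and every peak with a height of 3 or more within 10 kb of the RefSeq span of a gene was assigned to it. For each line there were 3 libraries of control cells and 3 of cells with silenced HCP5, a long non-coding RNA. Control cells of each line were the only comparison for silenced cells. How HCP5 was silenced, what the controls received and whether libraries of a group came from separate cultures are not stated in the labels. The p-values therefore measure the spread between these libraries, which may be technical. ATAC-seq reads where a transposase can enter chromatin, so the level of HCP5 RNA itself was not measured.

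Hemidesmosomes anchor basal cells of stratified epithelia, such as that of the oesophagus, to the basement membrane. On the outside, integrin alpha 6 beta 4 and collagen XVII bind laminin-332, a trimeric matrix protein that includes the chains encoded by LAMA3 and LAMB3. On the inside, plectin and the epithelial form of dystonin tie the complex to keratin filaments. Integrin alpha 3, which pairs with beta 1, binds the same laminin at other contacts of the cell with the matrix.

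The libraries of the lines differed in depth or in peak calling, and this bears on every comparison between them. KYSE150 libraries had 52869 to 63295 peaks with a height of 3 or more, and KYSE510 libraries had 104208 to 123109, with a median height of 5 in all 12. In KYSE150 88.9 to 90.3% of the listed peaks were below that height, and in KYSE510 8.47 to 11.2%. The sequencing depth is unknown. The background height implied by the deposited fold enrichment ranged from 0.0826 to 0.108 over the KYSE150 libraries and from 0.180 to 0.217 over the KYSE510 libraries. Line, depth and calling cannot be told apart, so heights are given as deposited and tests of height between lines used ranks within each library. Peak numbers were instead scaled to the number of peaks in each library. Markers were read within 1 kb of a listed start or, without one, of either gene end. Only TP63, KRT5, SOX2, PERP, PTPRC, PDGFRA and TEK had a listed start. Of 8 squamous epithelial markers, 2 (KRT5 and EPCAM) had a start-site peak in all KYSE150 libraries and 6 in all KYSE510 libraries. TP63 had none at its listed starts in any library, and SOX2 had one only in KYSE510, with heights of 6 to 17. Of the markers of other cell types, PTPRC, DCN, THY1, PECAM1 and TEK had no start-site peak in any library. SPI1, a blood cell factor read at its gene ends, had one in all 12, with heights of 7 to 9 in KYSE150 and 8 to 18 in KYSE510. The fibroblast marker COL1A1 had one in 3 KYSE150 libraries (up to 12) and in all 6 KYSE510 libraries (10 to 20). PDGFRA had one in 3 and 5 libraries, COL1A2 in 3 and 0, CD3E in 3 and 1, and CDH5 in 0 and 2, at heights of at most 7. The part of these in the results was not tested.

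RefSeq start sites and promoter sequences (GRCh38.p14) were matched for 5 of the 8 genes, with 10 starts in all. ITGB4, ITGA3 and PLEC had no entry, and for them both ends of the gene were taken in place of a start. The sequences below run from 250 bases before a start to 50 bases from it on. They are those of LAMA3 and LAMB3 starts with or near line-dependent peaks, and those of ITGA6 and COL17A1, whose start peaks were low. That of the most downstream DST start, with mean heights of 13.7 in KYSE150 and 13.2 in KYSE510, is also printed. Capitals mark the AP-1 motif TGANTCA and the Sp1 motif GGGCGG, searched on both strands.
LAMA3, chr18:23872770-23873069, plus strand: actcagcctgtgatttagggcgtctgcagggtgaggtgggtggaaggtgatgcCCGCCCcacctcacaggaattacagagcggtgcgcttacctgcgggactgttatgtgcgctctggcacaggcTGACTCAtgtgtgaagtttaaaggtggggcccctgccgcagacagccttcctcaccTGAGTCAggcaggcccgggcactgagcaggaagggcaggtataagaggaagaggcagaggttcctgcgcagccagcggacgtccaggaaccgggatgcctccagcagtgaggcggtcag
LAMB3, downstream start, chr1:209651325-209651624, minus strand: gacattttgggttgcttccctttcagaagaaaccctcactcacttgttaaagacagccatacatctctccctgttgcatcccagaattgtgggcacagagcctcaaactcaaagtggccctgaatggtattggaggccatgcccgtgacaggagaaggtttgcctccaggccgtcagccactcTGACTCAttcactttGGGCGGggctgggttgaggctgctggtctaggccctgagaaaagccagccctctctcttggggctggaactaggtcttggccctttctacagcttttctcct
LAMB3, upstream start, chr1:209652376-209652675, minus strand: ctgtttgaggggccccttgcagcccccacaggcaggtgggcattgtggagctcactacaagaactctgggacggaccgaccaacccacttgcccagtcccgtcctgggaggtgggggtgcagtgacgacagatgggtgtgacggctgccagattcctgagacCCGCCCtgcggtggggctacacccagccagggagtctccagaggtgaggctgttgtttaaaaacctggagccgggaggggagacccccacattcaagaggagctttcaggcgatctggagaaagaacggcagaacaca
ITGA6, chr2:172427336-172427635, plus strand: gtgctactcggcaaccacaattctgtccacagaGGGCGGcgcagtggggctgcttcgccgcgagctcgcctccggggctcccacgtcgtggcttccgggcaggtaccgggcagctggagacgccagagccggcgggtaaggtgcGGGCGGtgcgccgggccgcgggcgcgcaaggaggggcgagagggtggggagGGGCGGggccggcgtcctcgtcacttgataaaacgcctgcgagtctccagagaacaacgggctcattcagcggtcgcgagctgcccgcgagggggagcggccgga
COL17A1, chr10:104085831-104086130, minus strand: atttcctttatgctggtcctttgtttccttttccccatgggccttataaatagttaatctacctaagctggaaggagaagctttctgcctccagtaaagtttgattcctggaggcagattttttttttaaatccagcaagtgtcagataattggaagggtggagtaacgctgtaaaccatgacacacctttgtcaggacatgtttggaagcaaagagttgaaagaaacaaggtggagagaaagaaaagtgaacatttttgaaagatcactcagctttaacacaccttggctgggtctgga
DST, most downstream start, chr6:56642840-56643139, minus strand: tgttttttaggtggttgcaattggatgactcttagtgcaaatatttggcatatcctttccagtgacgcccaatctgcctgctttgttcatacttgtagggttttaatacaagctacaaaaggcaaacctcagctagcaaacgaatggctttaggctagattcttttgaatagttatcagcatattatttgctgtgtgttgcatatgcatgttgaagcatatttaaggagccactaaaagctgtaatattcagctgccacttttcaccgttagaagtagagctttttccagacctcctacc

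AP-1 is a dimeric factor of the FOS and JUN families. The AP-1 motif occurred in 3 of the 10 promoters of these genes, against 7.71% of 35116 RefSeq promoters of the same length. In the LAMA3 promoter it lay at -125 and -69 from the start, and in the downstream LAMB3 promoter at -67. The third was in the promoter of the most upstream DST start, at 25 past the start, which is not printed. The Sp1 motif occurred in 7 of the 10, from 4 of the 5 genes, against 45.0% of all promoters. Some of the 10 overlap: 1 Sp1 match is shared by 2 LAMB3 promoters and 1 by both ITGA6 promoters, so the 7 are not independent. The TEAD motif GGAATG occurred in 1 of the 10, against 14.0%, and a p63 motif (2 copies of CATG with 6 bases between them) in 0, against 0.373%. The ITGA6 promoter held 3 Sp1 matches, and the COL17A1 and downstream DST promoters held no match to any of the 4. These are matches of letters only, and factor binding was not measured.

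The 8 genes together held 64 to 82 peaks in a KYSE150 library and 91 to 114 in a KYSE510 library. Peaks within 1 kb of a start were few, 8 to 14 and 9 to 15 per library, and peaks elsewhere inside the gene spans numbered 43 to 60 and 68 to 88. Merging overlapping peaks over all 12 libraries gave 248 regions: 18 at starts, 202 inside the spans and 28 in the flanks. Starts here include both gene ends of ITGB4, ITGA3 and PLEC, which held 2, 2 and 4 of the 18 regions. For these genes a region at a start can lie at the downstream end, and starts within the span count as inside. Exons were not told apart from introns. A peak was present in all 12 libraries in 24 of the 248 regions (9.68%), against 7.34% of 290571 regions genome-wide. Of these 24, 5 lay at starts, 16 inside and 3 in flanks. DST had 10 of them, PLEC 5, ITGA3 4, ITGB4 2, and ITGA6, LAMA3 and LAMB3 1 each, whereas COL17A1 had none.

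**Figure D1:**
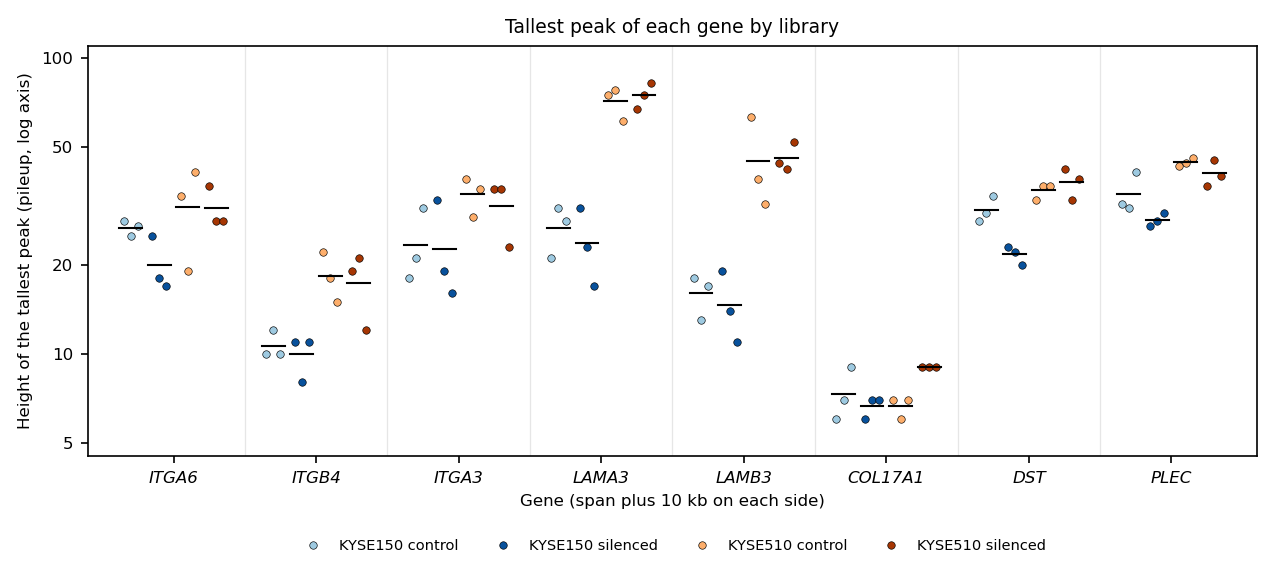
Height of the tallest peak (log axis) within 10 kb of each gene; points are the 3 libraries of a group and bars their mean. LAMA3 and LAMB3 stood higher in all 6 KYSE510 libraries than in any KYSE150 library, while COL17A1 lay at 6 to 9 throughout.

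ITGA6 encodes the alpha 6 chain, which with beta 4 forms the laminin receptor of the hemidesmosome. Its tallest peak had heights of 28, 25 and 27 in KYSE150 control and 25, 18 and 17 in KYSE150 silenced libraries. In KYSE510 the heights were 34, 19 and 41 in control and 37, 28 and 28 in silenced libraries. Both the treatments and the lines overlapped. In every library this was 1 region inside the gene, chr2:172441908-172442855, about 14795 bp downstream of the ITGA6 start at position 172427586. Peaks within 1 kb of a start were lower in every library. Their heights were 8, 8, 15, 12, 9 and 12 in KYSE150 (control, then silenced) and 9, 7, 9, 5, 11 and 7 in KYSE510. The height of 5, in KYSE510 silenced replicate 1, was that of a separate region, chr2:172428449-172428772. That library had no peak of height 3 or more in the region on the start, chr2:172427127-172428134.

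ITGB4 encodes the beta 4 chain, whose long cytoplasmic tail binds plectin. Its tallest peak reached 10, 12 and 10 in KYSE150 control and 11, 8 and 11 in silenced libraries, and 22, 18 and 15 against 19, 21 and 12 in KYSE510. The line ranges met at 12, and the treatments overlapped in both lines. In KYSE510 the tallest peak lay at chr17:75723042-75723693, 1908 bp from the lower gene end, in all 6 libraries. Peaks at the lower gene end itself were 10, 8, 10, 9, 4 and 6 high in KYSE150 and 9, 0, 10, 11, 6 and 10 in KYSE510, so that 1 KYSE510 control library had none.

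ITGA3, the alpha 3 chain, had tallest peaks of 18, 21 and 31 in KYSE150 control and 33, 19 and 16 in silenced libraries. The KYSE510 heights were 39, 29 and 36 in control and 36, 36 and 23 in silenced libraries, and both the treatments and the lines overlapped. The tallest region, chr17:50062213-50062971, lay 6482 bp inside the gene from its lower end. At that end, where the start of PICART1 also lies within 1 kb, heights were 10, 10, 8, 10, 8 and 7 in KYSE150 and 17, 12, 12, 14, 17 and 11 in KYSE510. The lines did not overlap there in deposited height, but the difference in rank was 0.24 ± 0.183 (limma, SE, adjusted p = 0.322).

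The laminin genes differed between the lines. LAMA3 encodes the alpha 3 chain, the part of laminin-332 that integrins bind. Its tallest peak was 21, 31 and 28 high in KYSE150 control and 31, 23 and 17 in silenced libraries, and 75, 78 and 61 against 67, 75 and 82 in KYSE510. Every KYSE510 library lay above every KYSE150 library, and the treatments overlapped in both lines. In all 12 libraries this peak sat on the listed start. The merged region, chr18:23872605-23873224, covers the promoter printed above. That start lies deep inside the gene span, and everything else in the span was lower: the tallest peak away from the start was 5 to 9 high in KYSE150 and 12 to 18 in KYSE510.

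LAMB3 encodes the beta 3 chain. The tallest peak was 18, 13 and 17 high in KYSE150 control and 19, 14 and 11 in silenced libraries, and 63, 39 and 32 against 44, 42 and 52 in KYSE510. Again no KYSE150 library reached the lowest KYSE510 library, and the treatments overlapped. In KYSE510 the tallest region was chr1:209652800-209653392, whose middle lay at -671 bp from the upstream start and which began beyond the upstream end of the printed promoter. At this region KYSE150 heights were 18, 13, 17, 19, 10 and 11.

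At the downstream LAMB3 start, which holds the AP-1 match, the region chr1:209651162-209651598 was 46, 28 and 25 high in KYSE510 control and 24, 17 and 24 in silenced libraries. In KYSE150 it was 6, 6 and 0 high in control libraries and had no peak of height 3 or more in the 3 silenced libraries. A flank region, chr1:209607136-209608023, lay 43795 bp from that start, beyond the downstream end of LAMB3 at 209614870. CAMK1G also comes within 10 kb of LAMB3, and to which gene this region belongs was not tested. The flank region was 0 to 10 high in KYSE150 and 21 to 43 in KYSE510. A region at -4890 bp from the upstream start, chr1:209657104-209657527, went the other way, with heights of 12, 7, 15, 13, 14 and 7 in KYSE150 and no peak in any KYSE510 library. It was 1 of 2 regions of the 8 genes present in all 6 KYSE150 libraries and in no KYSE510 library. The other, chr2:172449698-172450610 inside ITGA6, was 3 to 8 high in KYSE150. Both were singled out after their values were seen. Regions present in all 6 KYSE150 libraries only were 0.806% of the 248 regions of these genes, against 0.285% of 290571 genome-wide.

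The background around the laminin genes also differed between lines. The local background within 1 Mb of LAMB3, relative to the median of its library, lay between 0.73 and 1.11 in KYSE150 and between 1.44 and 1.76 in KYSE510. For LAMA3 it was 0.60 to 0.87 and 0.97 to 1.17. The test on fold enrichment, which divides by the local background, is given with the line comparison.

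**Figure D2:**
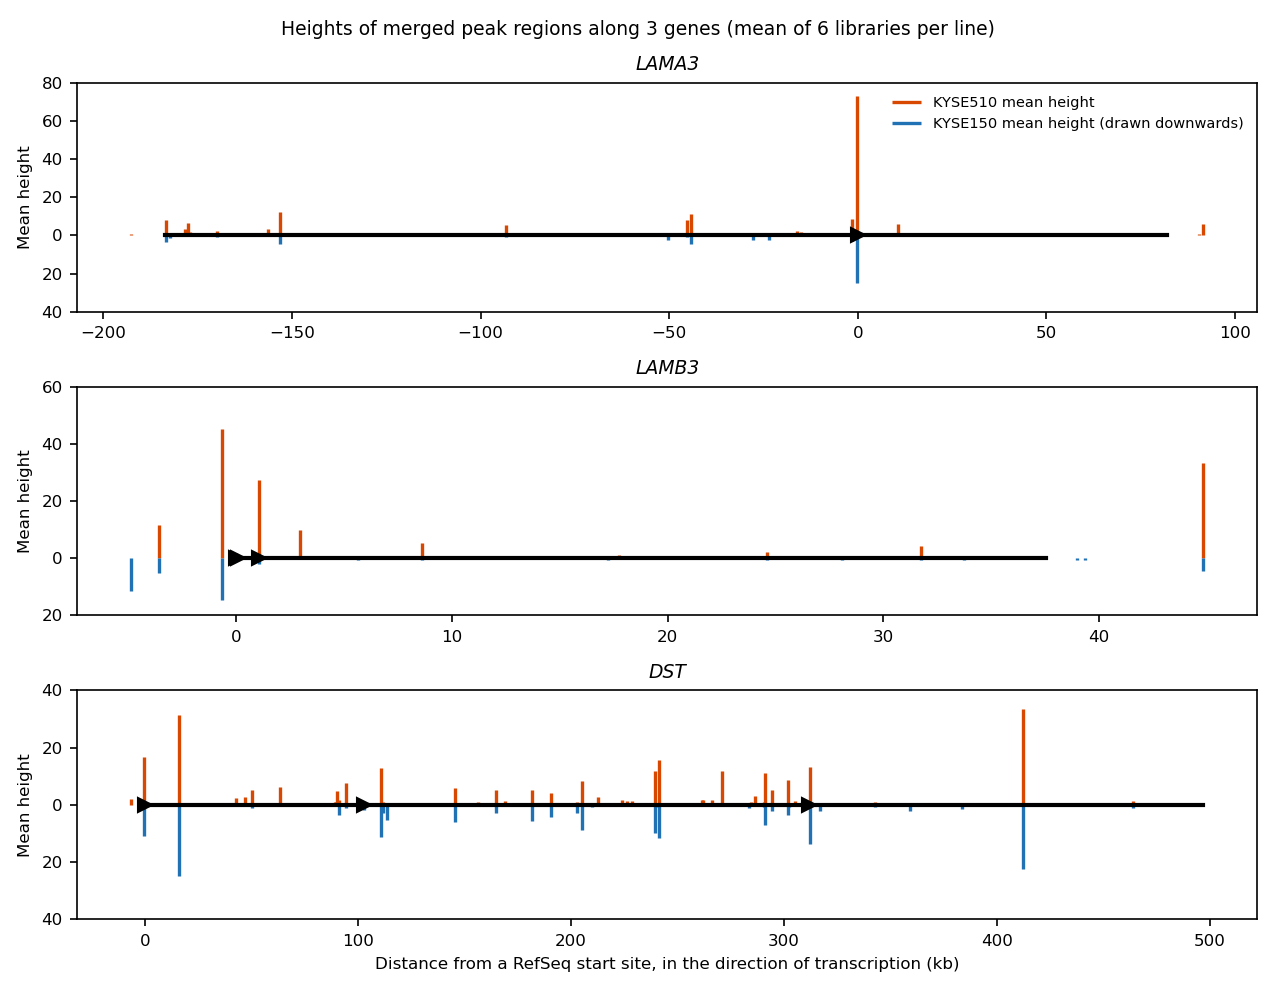
Mean heights of merged peak regions along LAMA3, LAMB3 and DST by distance from a RefSeq start (black triangles; the black line is the gene span), with KYSE510 drawn upwards and KYSE150 downwards on the same scale. The LAMA3 start peak averaged 73.0 in KYSE510 and 25.2 in KYSE150, and a LAMB3 region before the upstream start was seen in KYSE150 only.

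COL17A1, which encodes collagen XVII, had the lowest peaks of the 8 genes. Its tallest peak was 6, 7 and 9 high in KYSE150 control and 6, 7 and 7 in silenced libraries, and 7, 6 and 7 against 9, 9 and 9 in KYSE510. At the start the heights were 3, 0, 8, 6, 3 and 6 in KYSE150 and 3, 3, 5, 5, 4 and 9 in KYSE510, near the lowest height used. The silenced KYSE510 libraries lay above the KYSE510 controls by 2 to 3 height units, which is tested below. These tallest peaks were not the same region. In KYSE510 they began at 104076594, 104033722 and 104045494 in control and at 104076727, 104076677 and 104085832 in silenced libraries.

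Of the cytolinkers, DST encodes dystonin, which includes the epithelial antigen BPAG1e, and is the longest of the 8 genes at 496.8 kb. Its tallest peak was 28, 30 and 34 high in KYSE150 control and 23, 22 and 20 in silenced libraries, and 33, 37 and 37 against 42, 33 and 39 in KYSE510. The KYSE150 silenced libraries lay below the KYSE150 controls, and the KYSE510 groups overlapped. The most downstream of its 3 starts had heights of 13, 20, 12, 16, 6 and 15 in KYSE150 and 14, 14, 12, 11, 14 and 14 in KYSE510. The most upstream start, where BEND6 also starts within 1 kb, had 19, 8, 14, 12, 7 and 6 and then 21, 13, 17, 16, 11 and 23. At the middle start a peak was seen in the 3 KYSE150 control libraries, at heights of 3, 3 and 5, in 1 KYSE510 control library at 3, and in no silenced library. The tallest peaks lay inside the gene, at chr6:56542399-56543334 and chr6:56938500-56939225.

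PLEC encodes plectin, which links integrin beta 4 to keratin filaments. Its tallest peak was 32, 31 and 41 high in KYSE150 control and 27, 28 and 30 in silenced libraries, and 43, 44 and 46 against 37, 45 and 40 in KYSE510. The KYSE150 groups did not overlap, and the KYSE510 groups did. In KYSE150 the tallest peaks were not the same region. They began at 143939671, 143936443 and 143939557 in control and at 143936495, 143936488 and 143948416 in silenced libraries. The strongest PLEC region over all libraries, chr8:143936443-143937017, lay inside the gene and was 23 to 31 high in KYSE150 and 37 to 46 in KYSE510. There the KYSE150 groups overlapped, at 31, 31 and 24 in control and 27, 28 and 23 in silenced libraries. Both gene ends carried little, at most 7 in KYSE150 and 8 in KYSE510. The local background around PLEC was above the library median in every library, 1.27 to 2.07 times in KYSE150 and 1.72 to 2.22 times in KYSE510.

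Within libraries, the tallest peak of each gene was placed by its percentile among all peaks of height 3 or more. In KYSE150 the order of the mean percentiles was PLEC (98.2), DST (96.8), LAMA3 (96.2), ITGA6 (95.5), ITGA3 (94.7), LAMB3 (88.4), ITGB4 (78.1) and COL17A1 (63.1), and each neighbour overlapped the next over the 6 libraries. In KYSE510 it was LAMA3 (99.8), LAMB3 (98.9), PLEC (98.8), DST (98.2), ITGA3 (97.4), ITGA6 (96.7), ITGB4 (90.1) and COL17A1 (68.1). LAMA3 did not overlap LAMB3 there, ITGB4 did not overlap COL17A1, and the other neighbours overlapped. Since a long gene has more chances of a tall peak, these percentiles order peaks and not genes per length.

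The comparison of lines asks whether the rank of the tallest peak differed between KYSE510 and KYSE150 over all 12 libraries. Within each library the tallest peaks of all genes were ranked and turned into normal scores, in which 1 unit is 1 SD of a normal distribution. Of the 8 genes, 2 passed limma's test at an adjusted p under 0.05, both higher in KYSE510, against 42.1% of 14076 genes in either direction and 20.5% higher. LAMB3 was higher by 1.17 ± 0.165 (SE, 6 against 6 libraries, limma adjusted p = 2.11e-05). LAMA3 was higher by 1.14 ± 0.168 (limma adjusted p = 3.21e-05). With fold enrichment in place of height, the changes were 0.93 for LAMA3 (limma adjusted p = 0.00204) and 1.03 for LAMB3 (limma adjusted p = 0.000482). That fit takes the highest fold enrichment anywhere within 10 kb of a gene, which need not be that of its tallest peak. The LAMB3 region before the upstream start lost its call by fold enrichment, as given below. In deposited height, 2 of 8 had KYSE510 apart from and above KYSE150, against 22.7% of all genes. Both counts lie near the share of all genes and say nothing particular of the 8 genes as a set.

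The other 6 genes did not pass. The estimates were 0.30 ± 0.185 for ITGB4 (limma adjusted p = 0.204), 0.086 ± 0.202 for ITGA3 and 0.036 ± 0.162 for DST. They were -0.082 ± 0.190 for ITGA6, -0.063 ± 0.163 for PLEC and -0.34 ± 0.163 for COL17A1 (limma adjusted p = 0.0999). Without KYSE150 silenced replicate 1, COL17A1 passed as lower in KYSE510, at -0.43 (limma adjusted p = 0.0420). ITGA3 and ITGA6 changed sign with fold enrichment, to -0.24 and 0.077. The median change of the 8 was 0.061, against -0.030 over all genes.

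**Figure D3:**
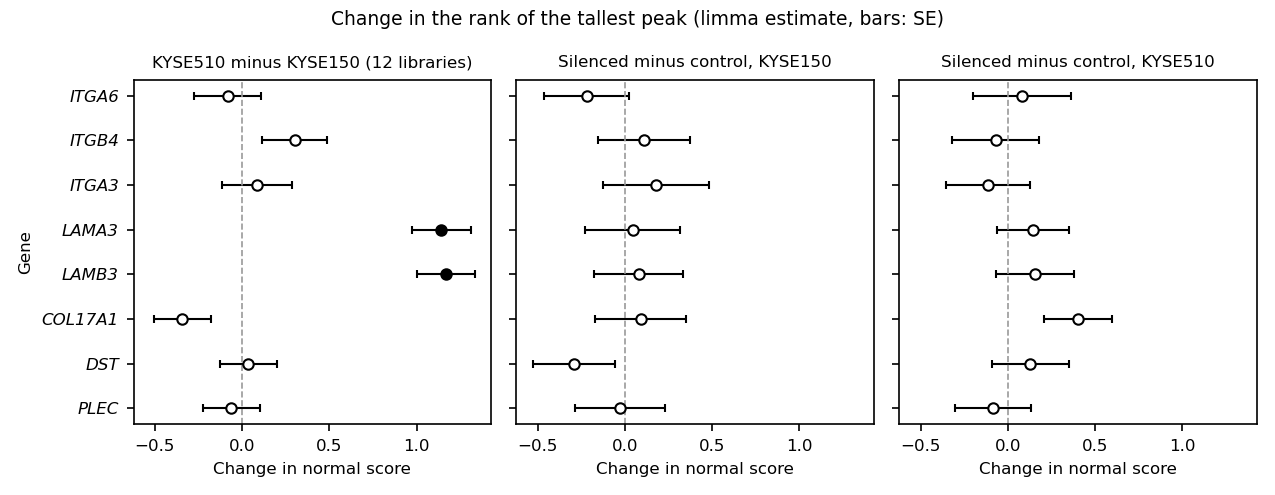
Estimated change in the normal score of the tallest peak of each gene, with its SE, for KYSE510 minus KYSE150 and for silenced minus control in each line; filled points passed an adjusted p under 0.05. Only LAMA3 and LAMB3 did, in the comparison of lines, and no gene did for silencing.

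Single regions were compared between lines where all 12 libraries had a peak. Of the 24 regions of these genes, 3 were higher and 1 lower in KYSE510 at a limma adjusted p under 0.05, against 38.1% of 21340 regions in either direction. The LAMA3 start region changed by 1.03 ± 0.181 (adjusted p = 0.000315). The LAMB3 region before the upstream start changed by 1.22 ± 0.202 (adjusted p = 0.000185). With fold enrichment the LAMA3 region kept its call (0.88, adjusted p = 0.00653) and the LAMB3 region lost it (0.62, adjusted p = 0.0704), beside the local background given above.

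The third higher region, chr17:50094944-50095479, lay in the flank of ITGA3 at the start of its neighbour PDK2. Its heights were 10, 9, 11, 6, 10 and 6 in KYSE150 and 19, 15, 16, 14, 20 and 14 in KYSE510, a change of 0.56 ± 0.193 (limma adjusted p = 0.0306). It lost its call with fold enrichment (adjusted p = 0.0595) and in 4 of the 12 fits that left out 1 library (KYSE150 control replicate 2 and silenced replicates 1 and 3, and KYSE510 silenced replicate 2; limma adjusted p 0.0599 to 0.0855). The lower region, chr8:143939553-143940720 inside PLEC, was 32, 29, 41, 22, 21 and 20 high in KYSE150 and 32, 18, 23, 19, 18 and 36 in KYSE510. Its deposited heights overlapped, and its rank fell by 0.67 (SE 0.211, adjusted p = 0.0191), with an adjusted p of 0.0523 without KYSE510 control replicate 2, the only 1 of the 12 such fits that lost the call.

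**Figure D4:**
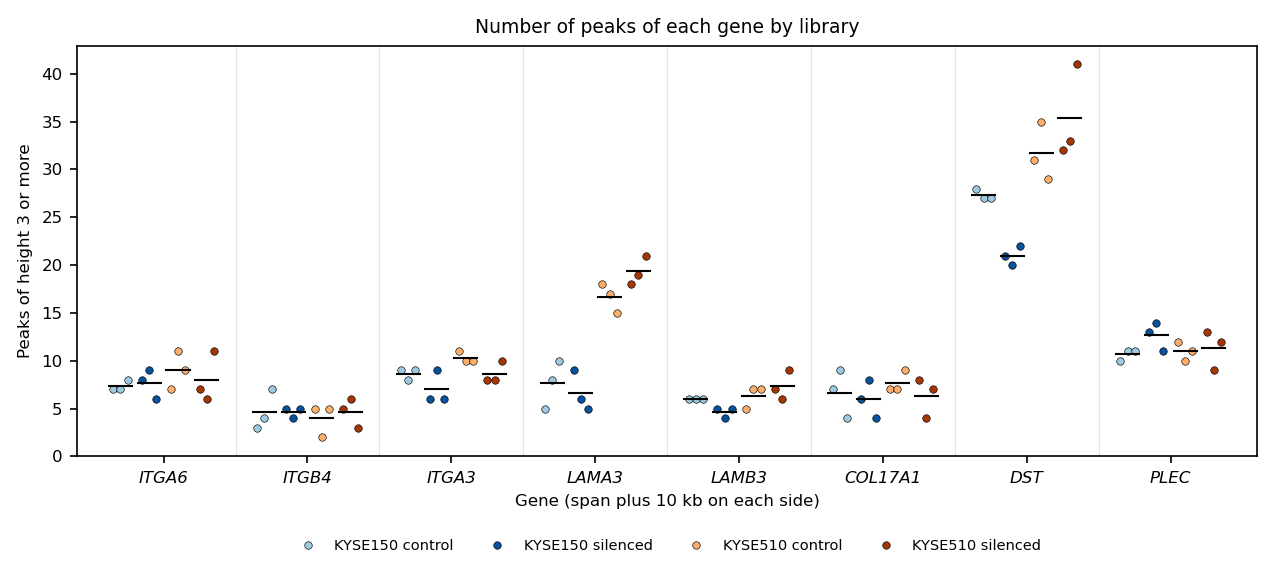
Number of peaks of height 3 or more within 10 kb of each gene; points are the 3 libraries of a group and bars their mean. In numbers not scaled to the library, LAMA3 had 5 to 10 peaks in KYSE150 and 15 to 21 in KYSE510, and DST had 20 to 28 and 29 to 41.

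In numbers not scaled to the peaks of each library, LAMA3 and DST had more peaks in KYSE510, where libraries held more peaks in all. Scaled to the library, DST was lower in KYSE510 (-0.47, limma adjusted p = 0.00641), with a direction that depended on the scaling, as given below. LAMA3 had 5, 8 and 10 peaks in KYSE150 control and 9, 6 and 5 in silenced libraries, and 18, 17 and 15 against 18, 19 and 21 in KYSE510. DST had 28, 27 and 27 against 21, 20 and 22 in KYSE150 and 31, 35 and 29 against 32, 33 and 41 in KYSE510. For both genes every KYSE510 library was above every KYSE150 library, 2 of 8 genes against 17.5% of all. Per 100 kb of window, LAMA3 had 2.51 ± 0.748 (SD, n = 6) peaks in KYSE150 and 6.30 ± 0.700 in KYSE510, and DST had 4.68 ± 0.686 and 6.48 ± 0.809. The other genes ranged from 3 to 14 peaks in KYSE150 and from 2 to 13 in KYSE510, and each overlapped between lines. Of the 46 merged LAMA3 regions, 31 occurred in some KYSE510 libraries and in no KYSE150 library (67.4%), against 39.9% over the 8 genes and 56.6% genome-wide. A further 2 were in all 6 KYSE510 libraries only (4.35%), against 1.61% over the 8 genes and 3.45% genome-wide. LAMA3 also had 47 to 61 KYSE150 peaks below a height of 3, which were not counted, and 1 to 4 in KYSE510.

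Peak numbers were tested as log2 of the number plus a pseudocount of 1, per 100000 peaks in the library. The median change of all genes was -0.56 on this scale. Of the 8 genes, 7 were lower in KYSE510, against 65.9% of 16733 genes called in either direction and 57.8% called lower. LAMA3 was the exception at 0.32 ± 0.162 (limma adjusted p = 0.0884), or 0.88 above the median of all genes. It passed without KYSE150 control replicate 3 (0.42, limma adjusted p = 0.0351) and without KYSE150 silenced replicate 1 (0.40, adjusted p = 0.0455). Among peaks of height 5 or more LAMA3 passed as well (0.54, limma adjusted p = 0.0271), and LAMB3 (-0.14, adjusted p = 0.404) and ITGA6 (-0.58, adjusted p = 0.0519) lost their calls. When changes were centred on that median, an alternative chosen after seeing the data, 1 of the 8 was called, LAMA3, which was 0.85 higher (adjusted p = 0.00303). All genes then split into 2901 higher and 1444 lower calls, against 1355 and 9675 without centring. DST (-0.47) turned to 0.052 with centring, and LAMB3 (-0.63) to 0.23 when each library was reduced to the same number of tallest peaks, so neither has a direction that holds over these scalings. The estimates of ITGB4 (-1.04), PLEC (-0.99), ITGA6 (-0.79), COL17A1 (-0.78) and ITGA3 (-0.67) lost their calls with centring, at -0.52, -0.47, -0.27, -0.26 and -0.15 (limma adjusted p 0.0581 to 0.511). With the same number of tallest peaks ITGB4 (-0.73) and COL17A1 (-1.08) passed, and PLEC (-0.13), ITGA6 (-0.62) and ITGA3 (-0.015) did not (limma adjusted p = 0.455, 0.0751 and 0.974).

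The comparison of silenced with control libraries asks whether accessibility at these genes changed after HCP5 was silenced. No gene and no region passed limma's test in either line, neither among the 8 nor among all features (0% called). For the tallest peak, the smallest adjusted p of the 8 genes was 0.956 in KYSE150 and 0.771 in KYSE510. For all genes, 746 of 14309 in KYSE150 (5.21%) and 1117 of 16595 in KYSE510 (6.73%) had an unadjusted p under 0.05, and none of the 8 did. The same held for peak numbers, with 897 of 15364 (5.84%) and 913 of 17477 genes (5.22%) and none of the 8. On simulated data with 3 against 3 libraries, 28% and 54% of shifts of 1 score unit in the tallest peak were recovered in KYSE150 and KYSE510, and 99% of shifts of 2 units in both. For the heights of single regions (27137 and 46254), 4% of shifts of 1 unit were recovered in each line, and 85% and 87% of shifts of 2 units, so that smaller changes of regions were mostly not detectable.

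Silenced libraries were also set against controls in deposited values, for tallest height and peak number, in both directions and in each line. In KYSE150 none of the 8 genes lay above all controls in either measure. In KYSE510 none lay apart in peak number, and none was lower in tallest height. The remaining comparisons follow, each with its share of all genes. In KYSE150 the tallest peaks of DST and PLEC were lower in all 3 silenced libraries, 2 of 8 genes against 11.6% of all genes. For both genes the tallest peak was not the same region in all of these libraries. By rank the changes were -0.29 ± 0.237 for DST and -0.031 ± 0.258 for PLEC (limma adjusted p = 0.956 and 0.998). The numbers of DST peaks, given above, and of LAMB3 peaks (6, 6 and 6 against 5, 4 and 5) were also lower in all 3 silenced KYSE150 libraries, 2 of 8 genes against 2.79% of all genes. On the log2 scale the changes were -0.25 ± 0.181 and -0.20 ± 0.193 (limma adjusted p = 0.839 and 0.878). In KYSE510 the tallest COL17A1 peak was higher in all 3 silenced libraries, 1 of 8 against 3.03% of all genes. It was not the same region in all libraries, and its change in rank was 0.40 ± 0.195 (limma adjusted p = 0.771, unadjusted p = 0.0619).

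Among single regions, 0 of 30 in KYSE150 and 5 of 47 in KYSE510 had an unadjusted p under 0.05, against 5.52% of 27137 and 8.06% of 46254 regions. The 5, named after their values were seen, went both ways. A region inside ITGA6, chr2:172447826-172448324, was 5, 3 and 3 high in KYSE510 control and 7, 7 and 9 in silenced libraries (change 1.22 ± 0.295, limma adjusted p = 0.414). The flank region beyond the downstream end of LAMB3 was 21, 27 and 27 high in control and 43, 39 and 43 in silenced libraries (0.67 ± 0.265, limma adjusted p = 0.564). A LAMA3 region, chr18:23827585-23828053, was 5, 5 and 7 against 11, 12 and 8 high (0.84 ± 0.304, adjusted p = 0.535). A region inside DST, chr6:56904551-56904961, was 9, 6 and 5 high in control and 4, 4 and 3 in silenced libraries (-1.02 ± 0.303, adjusted p = 0.475). The last, chr18:23719519-23720248 in LAMA3, was 18, 14 and 13 against 8, 10 and 12 (-0.60 ± 0.252, adjusted p = 0.598).

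The effect of silencing did not pass a test of difference between lines for any of the 8 genes (smallest limma adjusted p = 0.959) or for any of 14076 genes, of which 741 (5.26%) had an unadjusted p under 0.05. Of 21340 regions, 1214 (5.69%) had one and none passed after adjustment, and among the 24 of these genes 1 had one, in DST. The silencing comparison of each line used its own controls.

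A list of 30 other genes of hemidesmosomes and basement membrane adhesion was measured in the same way. Between lines 3 of 29 tested were higher in KYSE510 and 8 lower for the tallest peak, against 20.5% and 21.6% of all genes, and none passed limma's test for silencing in either line (1 of 29 in KYSE150 and 5 of 30 in KYSE510 at an unadjusted p under 0.05, against 5.21% and 6.73% of all genes). The higher genes were COL4A6, a basement membrane collagen chain (0.85 ± 0.178), LAMB2, another laminin beta chain (0.80 ± 0.244), and HSPG2, which encodes perlecan (0.59 ± 0.187). The 4 lowest were CD151, a tetraspanin partner of laminin-binding integrins (-1.24 ± 0.248), LAMB1 (-0.96 ± 0.167), FERMT1, which encodes the integrin activator kindlin-1 (-0.95 ± 0.204), and the basal keratin KRT14 (-0.84 ± 0.212). CD151 peaks were 8 to 27 high in KYSE150 (median 20) and 8 to 17 in KYSE510 (median 9.5). COL4A6 peaks were 5 to 11 high (median 8.5) and 16 to 26 (median 18.5). KRT14 peaks were 5 to 9 high (median 6) and 4 to 10 (median 5), near the lowest height used, and the lines overlapped. For peak number, 2 of the 30 were higher and 20 lower, against 57.8% of all genes called lower, with a median of -0.67 against -0.56 over all genes.

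For each gene, the gene with the smallest mean difference in percentile over the 12 libraries was found among 14075 others. LAMA3 was most like PRKCH (0.426 percentile points), PLEC like GOLIM4 (0.388), DST like GIPR (0.581), ITGA6 like KAT8 (0.918) and ITGA3 like NBN (0.993). LAMB3 was most like CHD5 (1.30), ITGB4 like COX7B (2.41) and COL17A1 like MYMK (5.13). None of the 8 had another of the 8 as its closest gene.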

How the data were processed

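Nuclei of 12 samples were transposed and sequenced as paired ends, per the labels. The submitters' processing notes name GRCh38, Trimmomatic 0.36, Bowtie2 2.2.6, Picard 2.8.2, MACS2 2.1.1 and bedtools 2.25.0, without roles. The authors deposited 1 peak list per library. Per the file headers, Pileup is the peak height, a signal at 1 position, with a fold enrichment, which is a ratio to local background, and a p-value and FDR. The largest deposited p-value was 0.00987, and peaks were called per library, with no scaling between libraries found in the tables. Depth is unknown, so no counting interval was computed.

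Peaks with a height of 3 or more on 24 chromosomes were assigned to RefSeq spans plus 10 kb. A start-site peak lay within 1 kb of a RefSeq start, or of either gene end where the table had none. Regions were peaks merged where they overlapped by 1 bp or more. limma 3.58.1 (R 4.3.3; Python 3.11.15, numpy 2.4.6, pandas 2.3.3, scipy 1.17.1, matplotlib 3.10.9) was fitted to all features with a peak in every library of the fit, as normal scores of within-library ranks, or to log2 peak numbers (mean of at least 1 peak), with Benjamini-Hochberg adjusted p under 0.05. The fits between lines used all 12 libraries, those of silencing the 6 of a line. Fits were tested on simulated data with 200 planted shifts. The 8 genes and the lists were chosen with earlier results of these data known. All 8 are named, with their start regions, their tallest other region, up to 3 called regions in each direction and up to 4 called genes in each direction of the other list. Same-numbered libraries of a line were not paired. Alternatives were other height and FDR thresholds, the same number of peaks, fold enrichment, spans without flanks, no filter, coverage of regions, start windows, a replicate block and leaving out each library. Some genes of the fixed lists are not reported here by name.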

Additional observations from a re-analysis of the deposited data

How the results depend on the processing

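The calls of LAMA3 and LAMB3 in the comparison of lines by tallest peak held when any 1 library was left out (changes of 1.07 to 1.22 and 1.10 to 1.25). Counted over spans without flanks, 1 of the 8 was called, LAMA3; LAMB3 then lacked a peak in some library and was not tested. With no filter 9021 genes were called. With fold enrichment ITGA3 turned to -0.24 and ITGA6 to 0.077, and 1 gene, none of the 8, was called for silencing in KYSE510. Without 1 library at a time, uncalled changes crossed 0: DST -0.019 to 0.14, ITGA3 -0.012 to 0.22, ITGA6 -0.20 to 0.060 and PLEC -0.12 to 0.0082. The count of genes called went from 0 to 1 for silencing in KYSE510 and from 0 to 1 for the difference between lines in silencing, both without KYSE510 control replicate 3.

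Peak numbers depended most on scaling. Between lines, 4345 genes (1 of the 8) were called after centring, with DST at 0.052, and 4034 (1610 higher and 2424 lower; 2 of the 8, COL17A1 and ITGB4) with the same number of tallest peaks, with LAMB3 at 0.23; over spans alone LAMB3 was 0.26. The LAMA3 change was 0.24 to 0.42 without 1 library (adjusted p 0.0351 to 0.211). For silencing, the same number of tallest peaks gave 97 calls in KYSE150 and 1 in KYSE510, none among the 8, and a height of 5 or more turned LAMB3 in KYSE150 to 0.079. Over regions of the 8 genes, 3 to 6 of 24 were called between lines without 1 library. Regions called between lines numbered 2537 where a peak had to cover at least 50% of the region and 5316 at a height of 5 or more. The causes were not tested.

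Same-numbered libraries did not vary together (r = 0.0208 to 0.124, above 0.1 in 1 of 6 pairs). With a replicate block, 5984 genes by tallest peak, 11002 by peak number and 8287 regions were called between lines, with 2, 7 and 4 of those of the 8 genes, and 0 for silencing.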
